A study of Mus musculus with 115 samples.

Results

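The 36 genes described here are transcripts of microglia, the resident immune cells of the brain, and they were read in RNA drawn from single neurons. They were taken by name from the 22870 genes of the deposited count table: 8 genes of resting (homeostatic) microglia, 3 subunits of complement component C1q, 3 chemokines, 7 lysosomal genes, 13 receptor and signalling genes and 2 transcription factors. The cells were granule cells of the mouse dentate gyrus, each sampled through a patch pipette that takes up the cytosol, and 1 library was made per cell (patch-seq). The animals were Rbp4-Cre mice, in which the Rbp4 promoter drives Cre recombinase. Every group had received retroAAV-EGFP in the ventral hippocampus of the opposite side. On the side that was later sampled it had received AAV.cDIO-mCherry, whose mCherry depends on Cre, with either saline or kainic acid (KA), an agonist of glutamate receptors that provokes seizures. EGFP+ therefore marks granule cells with an axon that reaches the opposite hippocampus and EGFP- those that did not take up the virus, sampled 2 weeks after the injection whether or not they expressed mCherry.

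Of 115 labelled cells, 95 are in the authors' quality-controlled table: 27 EGFP- and 5 EGFP+ cells after saline, then 36 EGFP- and 27 EGFP+ cells after KA. Sets of 4 values below keep this order. The study names 3, 3, 3 and 9 mice for these groups, but no label ties a cell to a mouse, so every group is 1 sample made of cells, the SDs are over cells, and no test between groups was made. Cells are named by group and by their title, the letter M and a number. The titles form a first series from M1 to M48, with KA cells only, and a second from M201 with all saline cells and 18 KA cells, so treatment and title series are in part the same split. The quality labels disagree with the table, since 13 kept cells are labelled as failed and 12 left-out cells as passed. The study states 57 passed saline EGFP- cells, of which those outside the 27 were not analysed here. Whether the treatment and EGFP labels are offset in the same way was not tested. Depth was 1277978 to 56183007 counts and 1469 to 9945 genes per kept cell. Levels are counts per 1000000 counts of the cell (CPM), and means are of log2(CPM+1). The neuronal label held in the table as a whole: Snap25, a synaptic vesicle fusion protein, was counted in 95 of 95 cells, Slc17a7, the vesicular glutamate transporter of excitatory neurons, in 92, and Prox1, the granule cell transcription factor, in 76.

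Microglia arise from the yolk sac and populate the brain independently of neurons. At rest they survey the tissue through receptors such as Cx3cr1 for the neuronal chemokine Cx3cl1 and P2ry12 for nucleotides, and they depend on signals through Csf1r. C1q, the first component of the classical complement pathway, tags synapses and debris, Tyrobp is the adaptor through which Trem2 and other receptors signal, and Ccl3 and Ccl4 are chemokines that activated microglia release. Lysosomal cathepsins degrade what is engulfed. Granule cells themselves are not known as a source of C1q, Cx3cr1 or Tyrobp, whereas neurons do make Ctsd and other general lysosomal proteases.

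The C1q genes lie side by side on chromosome 4, and in the GENCODE vM21 annotation of GRCm38, C1qb spans chr4:136880129-136886187, C1qc chr4:136889804-136893065 and C1qa chr4:136895917-136898803, all on the minus strand. Ccl3 (chr11:83647844-83649355, minus strand) and Ccl4 (chr11:83662584-83664683, plus strand) are neighbours on chromosome 11. RefSeq promoter windows (GRCm38.p6, 300 bases of which the last 50 lie after the start) were matched by symbol for 26 of the 36 members. They were searched on both strands for GAGGAA, the core of the ETS-type site that PU.1, the product of the member Spi1, is known to bind. GAGGAA stood in 15 of these 26 windows, against 28.3% of all 32851 windows of the table. The windows below are those of 4 genes that are counted together in the cells rich in microglial RNA, and of Ctsd, which is counted in most cells of every group. Capitals mark GAGGAA or its reverse complement, and a match says only that these letters are present.
C1qb, chr4:136886151-136886450, minus strand: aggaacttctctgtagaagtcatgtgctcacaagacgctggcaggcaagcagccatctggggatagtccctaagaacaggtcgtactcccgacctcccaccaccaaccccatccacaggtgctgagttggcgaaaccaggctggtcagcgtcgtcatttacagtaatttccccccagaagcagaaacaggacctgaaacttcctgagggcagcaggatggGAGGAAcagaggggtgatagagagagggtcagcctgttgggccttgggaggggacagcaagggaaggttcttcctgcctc
C1qc, chr4:136892865-136893164, minus strand: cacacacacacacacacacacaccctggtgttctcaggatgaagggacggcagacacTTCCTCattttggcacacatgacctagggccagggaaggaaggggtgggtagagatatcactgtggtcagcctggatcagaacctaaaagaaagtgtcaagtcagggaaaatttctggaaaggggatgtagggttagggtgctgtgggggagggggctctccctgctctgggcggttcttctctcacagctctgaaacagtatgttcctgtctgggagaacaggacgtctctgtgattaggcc
Ccl3, chr11:83649329-83649628, minus strand: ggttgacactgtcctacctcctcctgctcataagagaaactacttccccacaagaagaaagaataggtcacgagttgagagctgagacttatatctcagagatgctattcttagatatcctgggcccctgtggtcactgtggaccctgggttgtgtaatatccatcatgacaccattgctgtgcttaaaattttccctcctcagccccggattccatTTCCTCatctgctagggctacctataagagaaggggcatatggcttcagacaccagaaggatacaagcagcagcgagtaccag
Ctss, chr3:95526536-95526835, plus strand: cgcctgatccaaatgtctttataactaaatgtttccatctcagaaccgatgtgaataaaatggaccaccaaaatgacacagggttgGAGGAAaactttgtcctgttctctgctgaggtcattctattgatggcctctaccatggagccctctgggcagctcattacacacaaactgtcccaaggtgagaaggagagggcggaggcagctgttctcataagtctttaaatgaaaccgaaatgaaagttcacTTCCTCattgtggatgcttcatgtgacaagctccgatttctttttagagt
Ctsd, chr7:142387778-142388077, minus strand: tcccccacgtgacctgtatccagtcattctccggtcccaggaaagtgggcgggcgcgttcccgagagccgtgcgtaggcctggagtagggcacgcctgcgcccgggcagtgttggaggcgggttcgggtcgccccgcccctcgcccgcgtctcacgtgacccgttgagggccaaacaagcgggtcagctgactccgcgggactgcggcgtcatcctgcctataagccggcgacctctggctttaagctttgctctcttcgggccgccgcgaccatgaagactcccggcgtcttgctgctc
The match lay 30 bases before the start of C1qb, on the gene's own strand, and 33 bases before that of Ccl3 and 193 before that of C1qc, on the opposite strand. Ctss held 2 matches, at 164 bases before the start and at the first transcribed base, and the Ctsd window held 0.

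Microglial RNA was unevenly spread over the cells. For 33 of the members, all but the lysosomal proteases Ctsd, Ctsz and Lgmn, the summed level in saline EGFP- cells had a lowest value of 0, a median of 381 and a highest value of 98350 CPM. The 5 saline EGFP+ cells, M252, M247, M222, M230 and M258, held 5366, 7176, 49808, 52416 and 72981 CPM. In KA EGFP- cells the lowest, median and highest values were 0, 194 and 76802 CPM, and in KA EGFP+ cells 0, 253.99 and 45134 CPM. The ranges of all groups overlapped, and all 5 saline EGFP+ cells lay above 1000 CPM. At the top, in saline EGFP- cell M232, these 33 genes made up 9.83% of all counts.

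Cells with at least 1000 CPM of the 33 genes numbered 12 of 27, 5 of 5, 6 of 36 and 10 of 27. The exact (Clopper-Pearson) 95% intervals of these shares were 25.5 to 64.7%, 47.8 to 100%, 6.37 to 32.8% and 19.4 to 57.6%, and they cover the sampling of cells only, not the mice. With Ctsd, Ctsz and Lgmn included, cells with at least 1000 CPM numbered 12 of 27, 5 of 5, 15 of 36 and 16 of 27, so that the shares in saline and KA EGFP- cells, 44.4% and 41.7%, were close. At least 10000 CPM was reached by 7, 3, 3 and 3 cells, 16 of 95 in all. These 16 cells, called the richest below, were 7 saline EGFP- cells (M204, M232, M244, M253, M256, M257 and M260), 3 saline EGFP+ cells (M222, M230 and M258), 3 KA EGFP- cells (M209, M214 and M272) and 3 KA EGFP+ cells (M2, M12 and M45). A group's total was carried by few cells. The 3 richest saline EGFP- cells held 69.1% of the summed CPM of their group, and the 2 richest KA EGFP- cells, M214 and M209, held 85.9% of theirs.

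The number of members found together followed the level. All 33 genes were counted in saline EGFP- cells M232 and M256, in saline EGFP+ cell M222 and in KA EGFP+ cell M2. At the other end, 5 or fewer of the 33 were counted in 10 of 27, 0 of 5, 28 of 36 and 12 of 27 cells. The 0 of 5 allows a share of up to 60.0%. After each cell was thinned to 1000000 counts these numbers were 15, 0, 30 and 15, which is most cells of each group but saline EGFP+. Thinning equalised the counts per cell, not the genes counted.

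**Figure D1:**
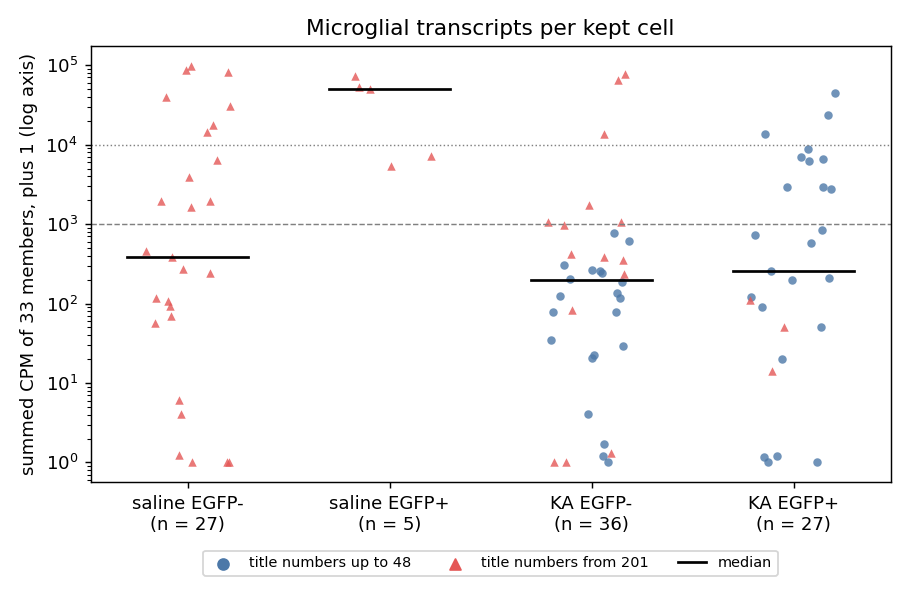
Summed CPM of 33 microglial genes plus 1 (log axis) in each kept cell, by group (27, 5, 36 and 27 cells), with circles for title numbers up to 48, triangles for those from M201 and a black line at the median; dashed and dotted lines mark 1000 and 10000 CPM. All 5 saline EGFP+ cells lie above 1000 CPM, and no KA EGFP- cell of the first title series does.

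The title series bore on the KA cells. Among KA EGFP- cells, 0 of the 21 with title numbers up to 48 held 1000 CPM of the 33 genes, with a median of 116 and a highest value of 760 CPM. If a count of 0 allows 3, the share may be up to 14.3%, and the exact 95% interval reaches 16.1%. Of the 15 from the second series, 6 held 1000 CPM (40%, exact 95% interval 16.3 to 67.7%), with a median of 423 CPM. Over all 36 members the numbers were 6 of 21 (28.6%) and 9 of 15 (60%). In saline EGFP- cells, which are all of the second series, the share was 44.4% with either set of genes. The KA EGFP+ cells at or above 1000 CPM of the 33 genes were 9 of 19 with title numbers 1 to 19, where all cells are EGFP+, 1 of 5 with numbers 20 to 48, and 0 of 3 in the second series. First-series KA EGFP- cells had more genes (median 6974) and more counts (median 6024055) than those of the second series (3707 and 3271137), and the part of depth in the difference between the series was not tested. Series and groups cannot be told apart beyond this.

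The first comparison asks whether KA cells carry other amounts of these transcripts than saline cells among EGFP- granule cells. The mean log2 of the summed CPM of all 36 members was 9.57 (SD 2.98, n = 36) in KA and 9.99 (SD 4.58, n = 27) in saline EGFP- cells, a difference of -0.42, far below the SD over cells. Without Ctsd, Ctsz and Lgmn the means were 6.91 (SD 4.14) and 8.71 (SD 5.42), and the difference was -1.80. From pooled counts of all 36 it was -2.73. Within the second title series, with 15 KA cells, the 36 members differed by -0.15 and the 33 genes by -0.23.

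Gene by gene, 23 of the 36 members had a mean at least 1 lower on the log2 scale in KA than in saline EGFP- cells, against 8.71% of the 11888 genes counted in at least 10% of the cells. Only Ctsd and Lgmn were higher by at least 1, against 24.1% of the genes. The median difference was -1.40 over the members and 0.33 over all these genes. With a pseudocount of 10 the count was 15 members. Within the second title series it was 13 members lower, against a background of 27.2%, and 0 higher, against 7.89%. There the medians were -0.74 over the members and -0.36 over all genes, so that the share of members was closer to the background.

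**Figure D2:**
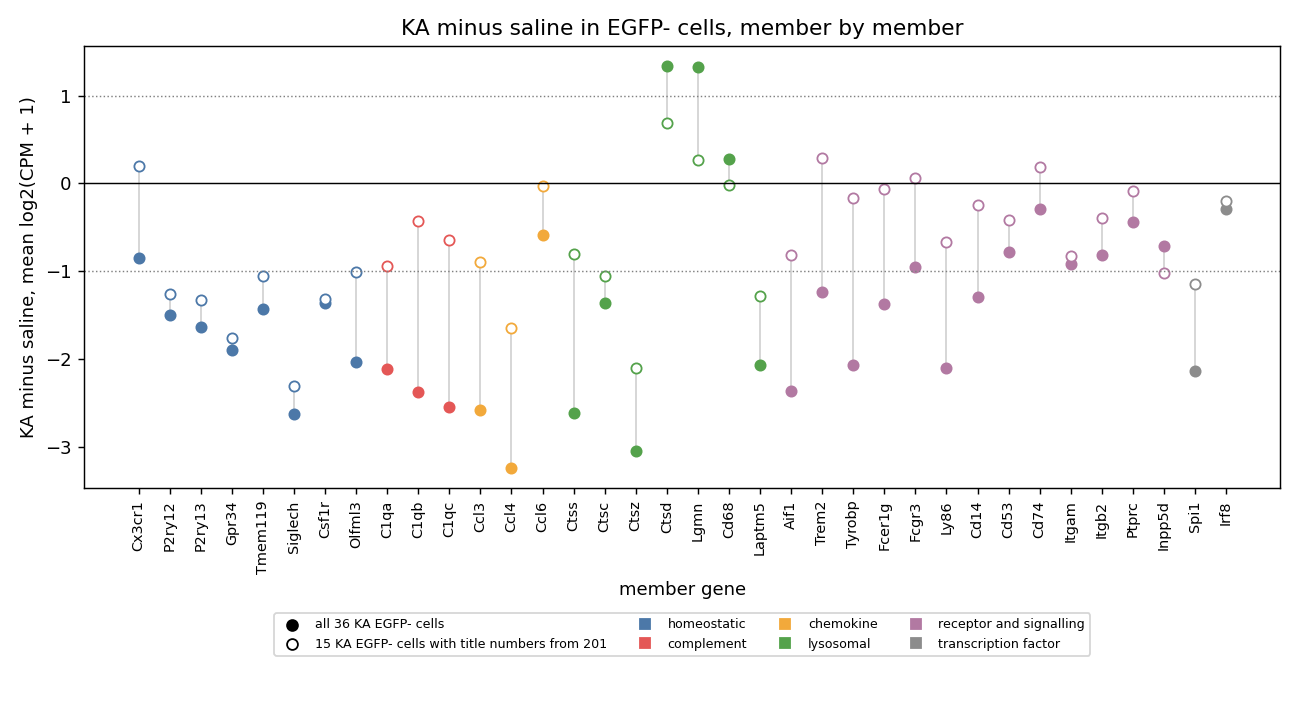
KA minus saline difference in mean log2(CPM+1) among EGFP- cells for each of the 36 members, coloured by class, with filled points for all 36 KA cells, open points for the 15 KA cells of the second title series and dotted lines at -1 and 1. Most filled points lie below 0, Ctsd and Lgmn lie above 1, and most open points lie closer to 0 than the filled ones.

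Of the 8 homeostatic genes, Csf1r was counted in 48 of 95 cells and the other 7 in 10 to 29. Counts of Cx3cr1 were found in 7 of 27, 3 of 5, 11 of 36 and 8 of 27 cells, and its highest values were 852, 527, 5205 and 500.1 CPM. The means were 1.97 (SD 3.55), 4.54 (SD 4.34), 1.12 (SD 2.80) and 1.65 (SD 2.99). Cx3cr1, the fractalkine receptor, thus lay within 1 SD between KA and saline EGFP- cells (difference -0.85), and its highest value of all, 5205 CPM, was in KA EGFP- cell M214. Any read makes a gene counted, and KA EGFP- cells M20, M33, M35, M210 and M212 held only 0.018 to 0.91 CPM of Cx3cr1. Only M209, M214 and M216 of that group held more than 100 CPM. In saline EGFP- cells its lowest counted value was 15.1 CPM, in M203. Csf1r was counted in 16 of 27, 3 of 5, 13 of 36 and 16 of 27 cells, with highest values of 4358, 3576, 1028 and 2411 CPM. On the log2 scale its means were 3.17 (SD 4.38), 6.38 (SD 5.89), 1.81 (SD 3.09) and 3.43 (SD 3.67). Csf1r, the receptor for colony-stimulating factor 1, was also counted without any other member of the 33: in saline EGFP- cell M261 it stood alone at 1660 CPM. Reads in 15.1% of its exon bases could also come from the overlapping gene Hmgxb3. For Gpr34, counted in 9 of 27, 3 of 5, 2 of 36 and 5 of 27 cells, the means were 2.36 (SD 3.95), 4.63 (SD 5.17), 0.47 (SD 1.95) and 1.47 (SD 3.14). Olfml3 was counted in 8 of 27, 2 of 5, 4 of 36 and 6 of 27 cells, with means of 2.78 (SD 4.41), 4.02 (SD 5.50), 0.75 (SD 2.50) and 1.50 (SD 3.03). Gpr34, a lysophosphatidylserine receptor, and Olfml3, a secreted matrix protein, were lower in KA than in saline EGFP- cells by 1.89 and 2.03 in mean log2, and by 1.76 and 1.00 in the second title series.

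The other 4 homeostatic genes, P2ry12, P2ry13, Tmem119 and Siglech, were counted in 10 to 18 of 95 cells. In KA EGFP- cells P2ry12, P2ry13 and Tmem119 were each counted in 1 of 36 cells and Siglech, a sialic acid-binding lectin, in 2, while in saline EGFP- cells they were counted in 6, 6, 6 and 9 of 27. Their differences, KA minus saline, were -1.50, -1.63, -1.42 and -2.62, and in the second title series -1.25, -1.33, -1.05 and -2.31. The homeostatic count was the same with and without the restriction to the second series: 7 of 8 were lower by at least 1 with all cells (median -1.56), against 8.71% of all genes, and 7 of 8 with the second series (median -1.29), against 27.2%. Cx3cr1, at 0.20, was the exception in the second series, as it was with all cells.

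Complement genes were counted together. Counts of C1qa were found in 12 of 27, 5 of 5, 6 of 36 and 12 of 27 cells, and its highest values were 3246, 2897, 5969 and 1342 CPM. On the log2 scale its means were 3.20 (SD 4.66), 7.89 (SD 4.85), 1.09 (SD 3.22) and 2.89 (SD 3.88). C1qb was counted in 14 of 27, 5 of 5, 8 of 36 and 14 of 27 cells, with highest values of 9077, 11535, 10499 and 5506 CPM. Its means were 4.08 (SD 5.28), 10.24 (SD 4.65), 1.71 (SD 3.96) and 4.37 (SD 4.89). Counts of C1qc were found in 16 of 27, 5 of 5, 10 of 36 and 11 of 27 cells, and its highest values were 5240.2, 5761, 7353 and 3610.4 CPM. The means were 4.55 (SD 4.95), 9.31 (SD 4.85), 2.01 (SD 3.93) and 3.39 (SD 4.53). C1qa, C1qb and C1qc encode the chains of C1q, and the medians were 0 or near it in all groups but saline EGFP+. In saline EGFP+ cells M222, M230, M247, M252 and M258 C1qb stood at 6337, 6405, 1212, 3.63 and 11535 CPM, so that cell M252 lay apart from the other 4. C1qa and C1qb were both counted in 28 cells, C1qa without C1qb in 7 and C1qb without C1qa in 13. Pearson's r of log2(CPM+1) over the 95 cells, which share the same libraries and depths, was 0.86 for this pair and 0.82 for C1qb and C1qc. KA minus saline in EGFP- cells was -2.11, -2.37 and -2.54, and -0.94, -0.43 and -0.65 within the second title series, so that 0 of 3 stayed past 1.

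The chemokines Ccl3 and Ccl4 were counted together as well. Ccl3 was counted in 14 of 27, 5 of 5, 8 of 36 and 10 of 27 cells, with highest values of 14749, 4467, 3192 and 4603 CPM. On the log2 scale its means were 4.15 (SD 5.66), 9.48 (SD 4.12), 1.58 (SD 3.56) and 3.06 (SD 4.27). Counts of Ccl4 were found in 18 of 27, 5 of 5, 10 of 36 and 16 of 27 cells, and its highest values were 27599, 15649, 17890.2 and 10255 CPM. Its means were 5.38 (SD 5.62), 10.75 (SD 5.00), 2.15 (SD 4.22) and 4.51 (SD 4.66). The Ccl4 values of saline EGFP+ cells M222, M230, M247, M252 and M258 were 12307, 13222, 1271, 3.63 and 15649 CPM. Ccl4 was the top gene of the 33 in 17 of the 33 cells with at least 1000 CPM. In EGFP- cells it differed by -3.23 between KA and saline and by -1.64 within the second series, and Ccl3 by -2.57 and -0.89. Both chemokines were counted in 35 cells, Ccl3 without Ccl4 in 2 and Ccl4 without Ccl3 in 14 (r = 0.86 over the 95 cells). Ccl6, the third chemokine, was counted in 5 of 27, 4 of 5, 3 of 36 and 6 of 27 cells and reached at most 948 CPM.

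**Figure D3:**
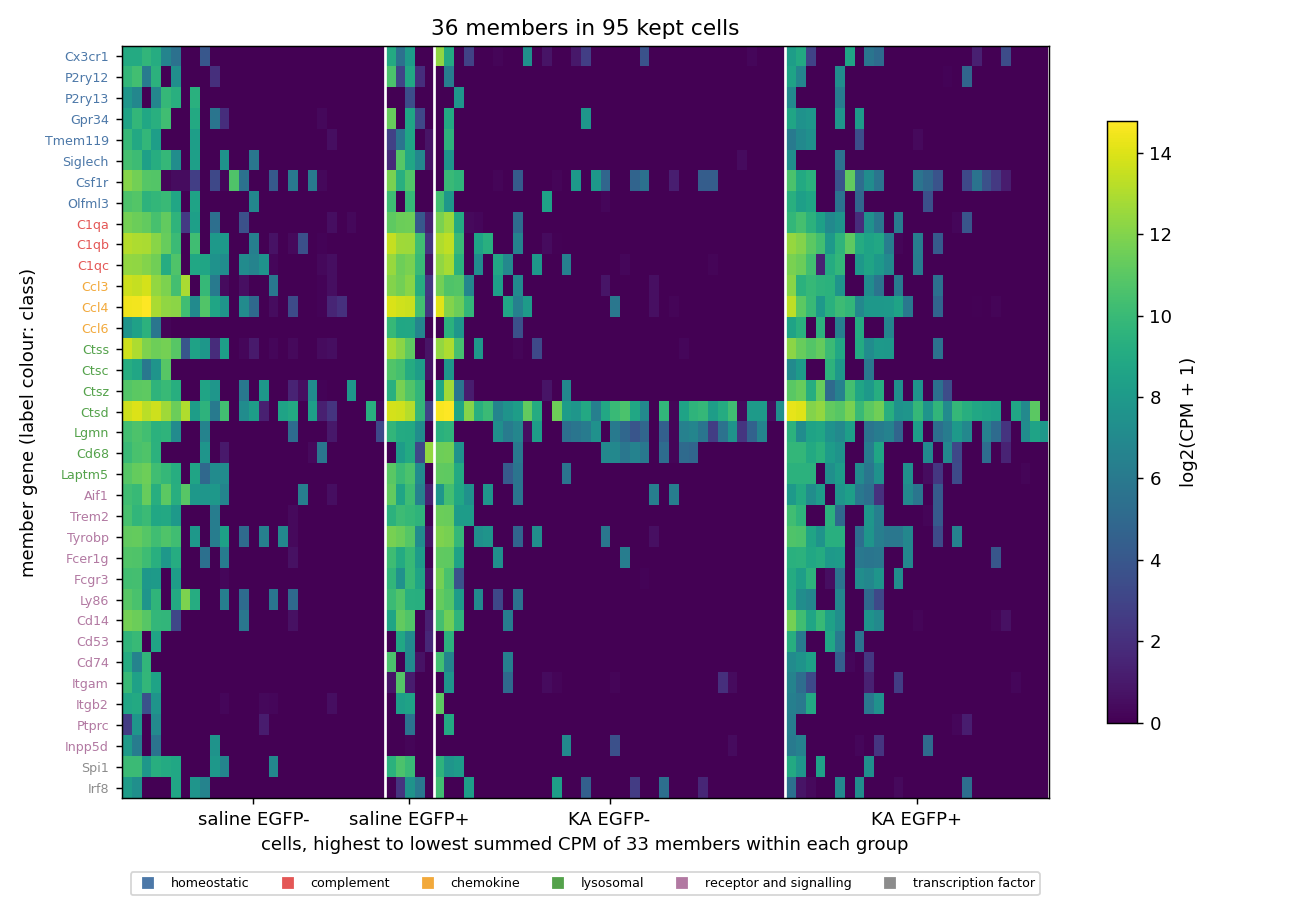
log2(CPM+1) of the 36 members (rows, label colour by class) in the 95 kept cells (columns), with groups divided by white lines and cells ordered from the highest to the lowest summed CPM of 33 members. The richest cells are bright in most rows, while the Ctsd row is bright across most cells and the Lgmn row across most KA cells.

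The lysosomal class held genes of unlike behaviour. Ctss was counted in 17 of 27, 4 of 5, 7 of 36 and 11 of 27 cells, with highest values of 13426, 7312, 7962 and 4712 CPM. The means were 3.93 (SD 5.16), 7.39 (SD 6.42), 1.32 (SD 3.55) and 3.79 (SD 4.82). Ctss, cathepsin S, a protease typical of antigen-presenting cells, was lower in KA than in saline EGFP- cells by 2.61, and by 0.80 in the second series. Counts of Ctsz were found in 15 of 27, 4 of 5, 6 of 36 and 14 of 27 cells, and its highest values were 2187, 3485, 6779 and 2627 CPM. On the log2 scale its means were 4.04 (SD 4.58), 8.32 (SD 4.75), 1.00 (SD 2.86) and 4.24 (SD 4.51). Ctsz, cathepsin Z, differed by -3.04 and by -2.09. Laptm5 was counted in 10 of 27, 4 of 5, 7 of 36 and 13 of 27 cells, with means of 3.36 (SD 4.64), 7.76 (SD 4.60), 1.30 (SD 3.17) and 2.90 (SD 3.81). Laptm5, a lysosomal membrane protein of blood cells and microglia, differed by -2.06 and -1.28. Ctsc, cathepsin C, was counted in 5 of 27, 5 of 5, 1 of 36 and 5 of 27 cells.

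Ctsd and Lgmn went the other way. Counts of Ctsd were found in 21 of 27, 5 of 5, 34 of 36 and 25 of 27 cells, and its highest values were 16487, 14568, 28017 and 19103 CPM. The means were 6.73 (SD 5.27), 10.67 (SD 4.64), 8.06 (SD 3.68) and 9.25 (SD 3.30). The medians were 303, 8799.5, 427 and 837 CPM. Ctsd, the aspartic protease cathepsin D, was the member counted in most cells (85 of 95). Lgmn was counted in 10 of 27, 4 of 5, 26 of 36 and 22 of 27 cells, with highest values of 1618, 848, 783 and 713 CPM. On the log2 scale its means were 2.72 (SD 4.12), 6.99 (SD 4.01), 4.05 (SD 3.21) and 5.63 (SD 3.10). Lgmn, an asparaginyl protease that processes cathepsins, had medians of 0, 496, 28.9 and 94.1 CPM. KA minus saline among EGFP- cells was 1.34 for Ctsd and 1.32 for Lgmn with all cells, and 0.69 and 0.27 within the second title series, where neither passed 1. Of Ctsd's exon bases, 34.4% are shared with the overlapping gene Gm49369, so reads there cannot be assigned to either.

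Both were present in cells that lacked other microglial transcripts. In the 32 cells with under 100 CPM of the 33 genes, Ctsd was counted in 25 (median 261.3, highest 2149 CPM) and Lgmn in 20 (median 4.70, highest 372 CPM), against 2 for C1qb and 7 for Ccl4. In the 33 cells with at least 1000 CPM, Ctsd was counted in 32, with a median of 3541 CPM, and Lgmn in 22, with a median of 144 CPM. Among cells under 100 CPM, the median of Ctsd was 0.32 CPM in 9 saline EGFP-, 278.5 in 14 KA EGFP- and 375 in 9 KA EGFP+ cells, and that of Lgmn was 0, 22.98 and 87.7 CPM. Both medians were higher in KA than in saline cells here too, but most of these KA cells are of the first title series, which holds no saline cell.

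Cd68, a lysosomal membrane glycoprotein of macrophages, did not follow the other genes either. Counts of Cd68 were found in 8 of 27, 4 of 5, 13 of 36 and 13 of 27 cells, and its highest values were 1679, 5343, 3044 and 893 CPM. Its means were 2.06 (SD 3.90), 6.53 (SD 4.93), 2.34 (SD 3.57) and 3.43 (SD 4.02). It differed by 0.28 between KA and saline EGFP- cells and by -0.02 in the second series. In saline EGFP+ cell M252 it stood at 5343 CPM and made up 99.6% of the 33 genes, while C1qb and Ccl4 were at 3.63 CPM in that cell.

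**Figure D4:**
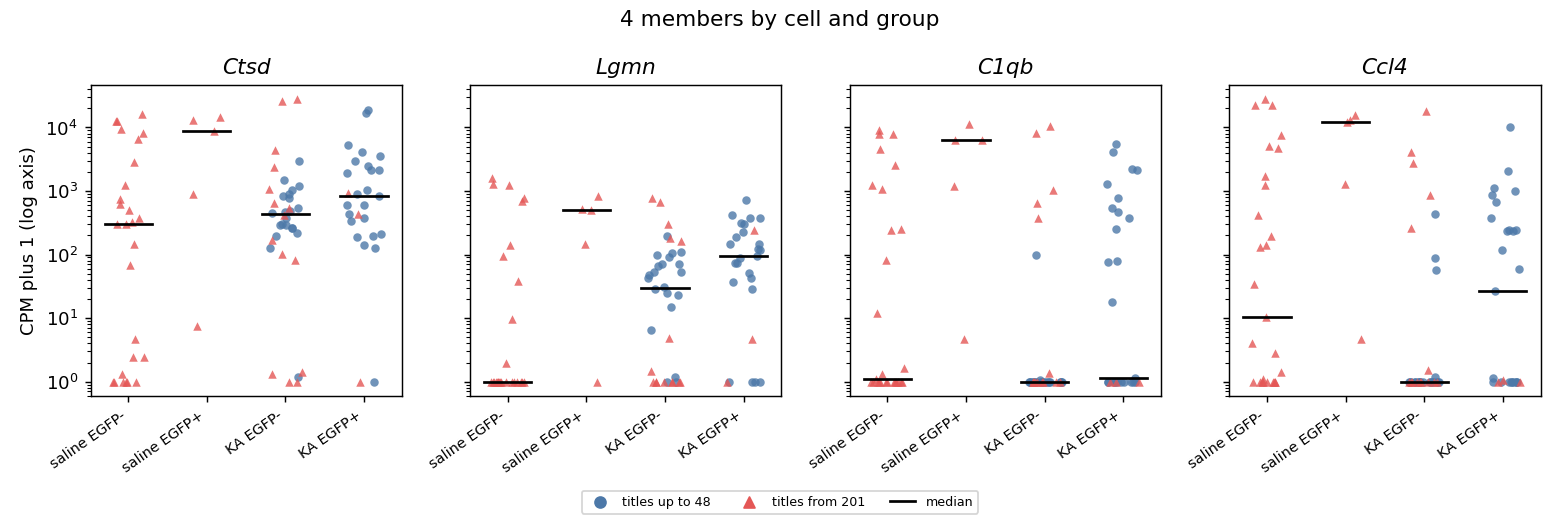
CPM plus 1 (log axis) of Ctsd, Lgmn, C1qb and Ccl4 in each kept cell by group, with circles for title numbers up to 48, triangles for those from M201 and black lines at the medians. Ctsd and Lgmn are counted in most first-series KA cells, whereas C1qb and Ccl4 are at or near 0 in most KA EGFP- cells.

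Of the 13 receptor and signalling genes, all had a lower mean in KA than in saline EGFP- cells, 6 of them by at least 1 (median -0.95), against 8.71% of all genes. In the second title series it was 1 of 13 (median -0.24), against 27.2%. Aif1 was counted in 13 of 27, 5 of 5, 8 of 36 and 12 of 27 cells, with highest values of 2638, 2362, 1321 and 497 CPM. The means were 4.04 (SD 4.70), 7.57 (SD 3.93), 1.68 (SD 3.26) and 2.92 (SD 3.56). Aif1, the calcium-binding protein Iba1 used to stain microglia, differed by -2.36, and by -0.81 in the second series. Counts of Tyrobp were found in 13 of 27, 5 of 5, 9 of 36 and 14 of 27 cells, and its highest values were 2502, 3391, 3939.8 and 1679 CPM. On the log2 scale its means were 3.92 (SD 4.67), 8.42 (SD 4.64), 1.86 (SD 3.68) and 3.85 (SD 4.07). Trem2 was counted in 8 of 27, 4 of 5, 4 of 36 and 8 of 27 cells, with highest values of 1401, 1118, 2786 and 1235 CPM. Its means were 2.32 (SD 4.02), 7.82 (SD 4.38), 1.09 (SD 3.17) and 1.96 (SD 3.56). Trem2, a lipid receptor that signals through Tyrobp, was counted with Tyrobp in 22 cells and without it in 2, and Tyrobp without Trem2 in 19. Tyrobp differed by -2.06 and -0.16, and Trem2 by -1.23 and 0.29, so that neither differed by 1 in the second series. For Fcer1g, counted in 9 of 27, 4 of 5, 5 of 36 and 11 of 27 cells, the means were 2.61 (SD 4.17), 7.46 (SD 4.25), 1.23 (SD 3.20) and 3.01 (SD 3.87). Fcgr3 was counted in 6 of 27, 5 of 5, 4 of 36 and 9 of 27 cells, with means of 1.67 (SD 3.58), 7.33 (SD 3.79), 0.72 (SD 2.63) and 2.30 (SD 3.63). Fcer1g is the signalling chain of Fc receptors and Fcgr3 a low-affinity receptor for IgG, and in KA minus saline they were at -0.07 and 0.06 in the second series.

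For Ly86, counted in 11 of 27, 4 of 5, 6 of 36 and 6 of 27 cells, the means were 3.38 (SD 4.42), 7.89 (SD 4.45), 1.28 (SD 3.13) and 1.41 (SD 2.83). Cd14 was counted in 8 of 27, 4 of 5, 4 of 36 and 11 of 27 cells, with means of 2.34 (SD 4.27), 6.40 (SD 5.36), 1.05 (SD 3.08) and 2.66 (SD 4.18). Ly86 (MD-1) and Cd14 belong to receptor complexes for bacterial products, and both were higher in saline EGFP+ than in any other group. For Itgam, counted in 4 of 27, 3 of 5, 7 of 36 and 6 of 27 cells, the means were 1.36 (SD 3.34), 2.55 (SD 4.65), 0.45 (SD 1.54) and 0.72 (SD 1.73). Itgam, the integrin chain CD11b, shares 68.7% of its exon bases with the overlapping gene Gm49368 and is uncertain for that reason. The remaining 5 genes of this class, Cd53, Cd74, Itgb2, Ptprc and Inpp5d, were counted in 9 to 17 of 95 cells and reached 261.3 (Inpp5d) to 2130 CPM (Itgb2). Ptprc, the leukocyte antigen CD45, was the only member below the 10% of cells asked of a gene for the background.

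Spi1 was counted in 9 of 27, 3 of 5, 3 of 36 and 4 of 27 cells, with highest values of 1079, 1523, 741 and 494 CPM. Its means were 2.83 (SD 4.14), 6.0 (SD 5.49), 0.70 (SD 2.38) and 1.20 (SD 2.95). Spi1, the myeloid factor PU.1, was lower in KA than in saline EGFP- cells by 2.13, and by 1.14 in the second series. Counts of Irf8 were found in 5 of 27, 3 of 5, 7 of 36 and 7 of 27 cells, and its highest values were 419, 188, 1192 and 153 CPM. The means were 1.43 (SD 3.07), 3.14 (SD 3.46), 1.13 (SD 2.69) and 0.98 (SD 2.27). Irf8, an interferon regulatory factor of microglia, was counted in 3 of the 32 cells with under 100 CPM of the 33 genes. Its correlation with the summed level of the 33 genes was weak (r = 0.36 over 95 cells, with Irf8 itself left out of the sum).

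The second comparison sets EGFP+ against EGFP- cells after KA, that is, granule cells with and without a labelled axon to the opposite side. The summed level of the 36 members was 10.80 (SD 2.68, n = 27) in EGFP+ and 9.57 (SD 2.98, n = 36) in EGFP- cells, a difference of 1.22, within the SD. In all, 21 of 36 members were higher by at least 1, against 13.7% of genes, and 0 were lower by 1, against 3.38%. In the first title series the counts were 29 higher, against 6.08%, and 0 lower, against 17.3%, but there 19 of the 24 EGFP+ cells come from titles 1 to 19, which hold no EGFP- cell. Over titles 20 to 48, where 5 EGFP+ and 21 EGFP- cells are mixed, the 36 members differed by 0.47 and the 33 genes by -0.25. Only EGFP+ cell M45 of these 5 held over 1000 CPM, at 13711 CPM. In the second title series the difference turned to -2.03, with 3 EGFP+ cells that held 13.3, 49.8 and 109.9 CPM of the 33 genes. With a pseudocount of 10, the count of members higher by at least 1 was 6.

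In this comparison all 7 lysosomal genes were higher by at least 1 (median 1.59), against 13.7% of all genes, with Ctsz at 3.24, Ctss at 2.47 and Ctsd at 1.19. The 3 complement and 3 chemokine genes were also all past 1, led by C1qb (2.66) and Ccl4 (2.36). Homeostatic genes passed 1 in 2 of 8 cases, Csf1r (1.63) and Gpr34 (1.00), and neither transcription factor did. The EGFP- cells are the same that enter the comparison with saline, so the opposite signs in both comparisons share those cells.

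After saline, the 5 EGFP+ cells held more of these transcripts than the 27 EGFP- cells: the mean of the 36 members was 14.79 (SD 1.88) against 9.99 (SD 4.58), a difference of 4.80. Leaving out each of the 5 cells in turn gave 4.39 to 5.40, without Ctsd, Ctsz and Lgmn it was 5.82, and pooled counts gave 0.81. Of the members, 33 were higher by at least 1, against 11.7% of genes, and P2ry13 was lower by 1.15, against 31.4%. Ctsc, at 6.29, and C1qb, at 6.17, differed most. KA EGFP+ cells in turn lay below saline EGFP+ cells by 3.99, by 6.33 without Ctsd, Ctsz and Lgmn and by 2.84 from pooled counts. There 33 of 36 members were lower by at least 1, against 9.17%, and 0 higher, against 50.3%. Of the KA EGFP+ cells 24 are of the first title series and all saline cells of the second, and with the 3 KA EGFP+ cells of the second series the difference was -6.99. Both comparisons rest on the same 5 cells, of which M222 and M230 are labelled as failed in quality control. Prox1 was at 0 in M230, M247 and M258, at 2.18 CPM in M252 and at 461 CPM in M222. The median sum of granule cell markers was 2087 CPM in saline EGFP+ and 3543 CPM in saline EGFP- cells. For neuronal markers it was 2209 and 3920 CPM. In M252, Cd68 alone made up 99.6% of the 33 genes.

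The mix of classes is the share of each class in the summed level. Between classes it was compared per exon length of the GENCODE gene models, from mean CPM and for the 33 genes. In saline EGFP- cells the per-length shares were 59.8% chemokines, 15.3% complement, 12.6% receptor and signalling, 8.92% lysosomal, 2.98% homeostatic and 0.49% transcription factors. In KA EGFP- cells they were 36.1%, 26.1%, 22.4%, 12.8%, 2.08% and 0.52%. Ccl4 alone made up 39.0% and 28.9%, and Ccl3 20.6% and 6.80%. Per exon length, chemokines led in each group, with 48.2% in saline EGFP+ and 37.4% in KA EGFP+ cells. Without the length correction this order did not hold after KA. There the complement share of the 33 genes lay above the chemokine share in KA EGFP- and in KA EGFP+ cells.

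Without the length correction and with all 36 members, the chemokine share was 32.3% in saline and 13.7% in KA EGFP- cells, a difference of -18.5 percentage points. The lysosomal share was 30.0% and 45.5% (15.5 points), the complement share 14.6% and 17.9% (3.30 points) and the homeostatic share 8.47% and 4.84% (-3.64 points). Most of the lysosomal difference came from Ctsd, Ctsz and Lgmn: without them it was 2.64 points, while that of the chemokines was -18.6 and that of complement 9.47. These mixes rest on few cells. Leaving out single cells of either group, for the 33 genes, gave -24.2 to -11.5 points for chemokines, 3.45 to 14.1 for complement and -0.19 to 4.93 for lysosomal genes, and in each case the ends came from leaving out KA EGFP- cells M214 and M209. Over single EGFP- cells with at least 1000 CPM of all 36 members, the SD of the chemokine share was 15.2 points. Those of the complement, lysosomal and homeostatic shares were 11.3, 22.8 and 18.5 points. These SDs are of shares within cells, while the differences are between shares of group means, so the SDs do not measure the spread of the differences. Of the KA EGFP- cells 15 reached 1000 CPM with all members, and 6 without Ctsd, Ctsz and Lgmn.

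Cell by cell, the chemokine share of the 33 genes was 28.4 to 60.9% in the 10 richest saline cells of both EGFP classes. In the 6 richest KA cells it was 10.1% (M209), 14.5% (M12), 14.5% (M45), 27.4% (M214), 33.8% (M2) and 35.7% (M272), so 4 of them lay below all richest saline cells and 2 among them. Complement was 0.03 to 26.7% in the richest saline cells and 16.6 to 36.7% in the richest KA cells, and 3 of the latter (M209, M12 and M45) lay above all of the former. For none of the 36 members did the values of the 6 and the 10 cells separate without overlap, in either direction. The same held for nearly all genes: of 11888, 2 (0.0168%) separated with higher and 0 (0%) with lower KA values.

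The poorer cells differed more from each other. Saline EGFP- cell M261 held Csf1r only, KA EGFP+ cell M9 held Csf1r (38.7%) and C1qb (35.6%) among 6 genes, KA EGFP- cell M268 held C1qb (61.3%) and Aif1 (19.6%) among 3 genes, and saline EGFP- cell M219 held C1qb (19.4%) and P2ry13 (10.6%) among 16. In saline EGFP- cell M260, which is among the richest, Ccl3 and Ly86 made up 52.3% and 25.4% of 14439 CPM over 7 genes, with 0.03% complement.

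**Figure D5:**
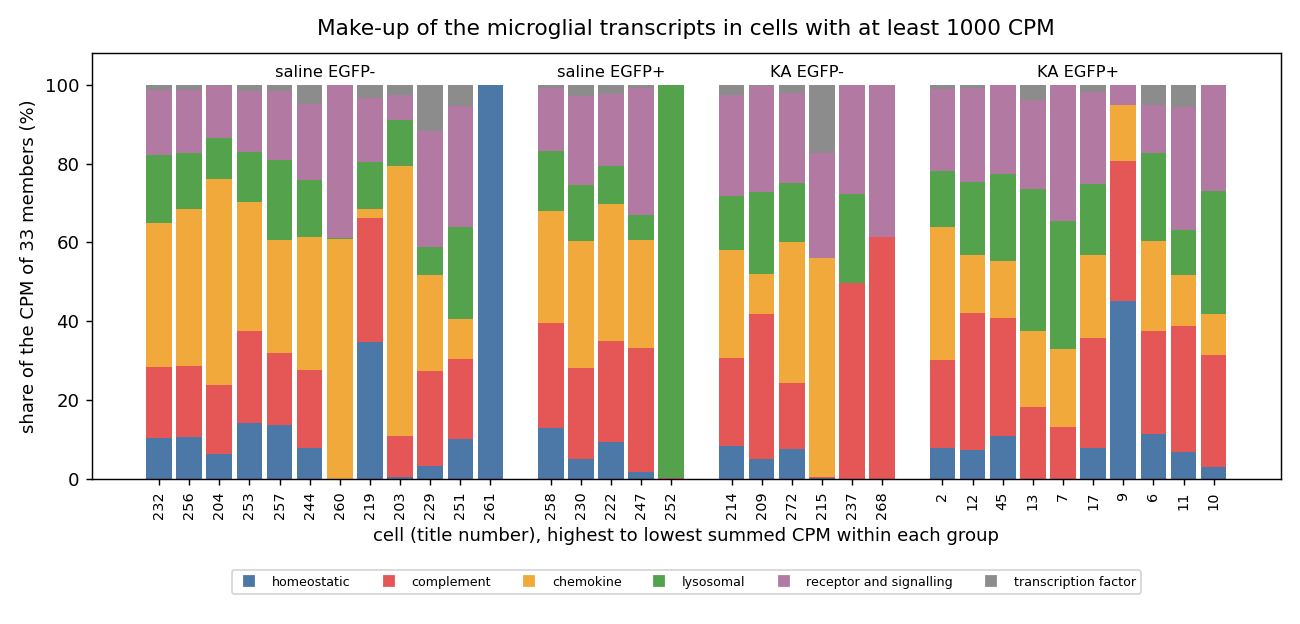
Share of each of 6 classes in the summed CPM of 33 members (bars add to 100%) in the 33 cells with at least 1000 CPM, by group and ordered from the highest to the lowest summed CPM; title numbers stand below the bars. In the richest cells, on the left of each group, chemokine shares run from 28.4 to 60.9% after saline and from 10.1 to 35.7% after KA, and M260, at 60.9%, holds almost only chemokine and receptor genes.

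Genes outside the 36 varied with them. The 15 genes most like the summed level of the members, by Pearson's r of log2(CPM+1) over the 95 cells, were Cst3 (r = 0.80), Ccl12, Ftl1, Fth1 (0.70 each), Cyba, Bcl2a1b (0.69 each), Arhgdib, Il1a (0.68 each), Gm29094, Trf, Gng5, Bcl2a1a (0.67 each), Selenop (0.66), Fcrls and Bcl2a1d (0.65 each). These points share libraries and depths. The order depends on Ctsd, Ctsz and Lgmn, which this sum includes. With the sum of the 33 genes, r was 0.63 for Cst3 and 0.58 for Ftl1. It was then highest, among these 15 genes, for Il1a (0.72), Ccl12 and Bcl2a1b (0.71 each). Cst3 encodes the protease inhibitor cystatin C, Ftl1 and Fth1 the ferritin chains, Il1a the cytokine interleukin 1 alpha and Cyba a subunit of the phagocyte oxidase. In the 10 richest saline cells Il1a had a median of 6205 CPM (0 to 11492) and in the 6 richest KA cells 1623 CPM (0 to 8249), with overlapping ranges. Of 22 further microglial genes, 22 were counted in the 16 richest cells (median sum 10878 CPM) and 21 in the 62 cells under 1000 CPM (median sum 233.9 CPM).

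Apoe stood out in the richest cells. It encodes the lipid carrier apolipoprotein E, which reactive microglia and astrocytes make, and it is 1 of 11 measured genes of a list of reactive microglia. In KA cells M45, M272, M12, M209, M2 and M214 it stood at 4253, 4289, 9735, 21929, 30745 and 43277 CPM. In the 10 richest saline cells the lowest, median and highest values were 0, 232.9 and 2061 CPM, so the ranges did not overlap. The 6 KA cells come from both EGFP classes and both title series. Only 2 of 11888 genes (0.0168%) separated in this way with higher KA values, Apoe and Cpne7, and 0 (0%) with lower ones. This comparison of cells was chosen after its values were seen. In cells with 1000 to under 10000 CPM of the 33 genes, the median of Apoe was 2304 CPM in 10 KA and 0.73 CPM in 7 saline cells, and in cells under 1000 CPM it was 0.18 CPM in 47 KA and 0 in 15 saline cells. Among KA cells, the medians were thus highest in the richest cells. Of the astrocyte genes, Slc1a2, a glutamate transporter, had medians of 171, 19.8 and 56.7 CPM in KA cells with at least 10000, 1000 to under 10000 and under 1000 CPM of the 33 genes, and Gfap, the intermediate filament of astrocytes, of 63.0, 104 and 0 CPM. In the 10 richest saline cells the medians were lower, at 1.58 CPM for Slc1a2 and 0.10 CPM for Gfap. Aldoc, also of the astrocyte list, went the other way, with medians of 38.2 CPM in the richest saline and 0 CPM in the richest KA cells. The part of astrocyte RNA in the Apoe level was not tested. Of the 11 genes of the list, 8 had a higher median in the richest KA than in the richest saline cells, and Gpnmb, Itgax and Lpl had a median of 0 in both. The share of all genes with a higher median was not computed, so no background stands beside this count. Among the 8, Axl, Ch25h and Spp1 had a saline median of 0 and were each counted in 3 of the 6 KA cells. In the 10 saline cells Axl was counted in 4, Ch25h in 2 and Spp1 in 0. Cst7, also among the 8, was counted in 4 of 6 KA and 7 of 10 saline cells. Cd9 and Cd63 had medians of 812 and 739 CPM in the richest KA and 373 and 226.9 CPM in the richest saline cells, with overlapping ranges. Over all EGFP- cells, 6 of the 11 had a higher and 5 a lower mean in KA than in saline cells, and 1 was higher by at least 1, against 24.1% of all genes.

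Other immune cells were hardly seen. In the 16 richest cells, 3 of 8 perivascular macrophage genes had a count (sums of 0 to 82.9 CPM), and Cd163, Lyve1, F13a1, Pf4 and Ms4a7 were at 0 there. Of 8 monocyte and neutrophil genes 5 had a count (sums up to 79.6 CPM), with S100a8, S100a9 and Chil3 at 0, and of 8 lymphocyte genes 6 (sums up to 139 CPM). Neuronal transcripts stayed in the same libraries, with KA EGFP- cell M214 as the exception. The 8 neuronal markers had a median sum of 2297 CPM in the 16 richest cells. It was 3977 in the 17 cells with 1000 to under 10000 CPM and 4466 in the 62 other cells. Granule cell markers (10 genes) stood at 926, 1288 and 1370 CPM. Snap25 was lowest of the 16 richest cells in KA EGFP- cell M214, at 4.01 CPM with 1469 genes counted in that cell. Prox1 was at 0 in 6 of the 16, M209, M214, M230, M257, M258 and M260. Astrocyte sums were 470, 356 and 309 CPM and oligodendrocyte sums 125, 244.3 and 122 CPM in these 3 sets of cells. Whether the microglial RNA came from material outside the patched cell was not tested.

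Neuronal ligands of microglial receptors were read in the same cells. Cx3cl1, the ligand of Cx3cr1, was counted in 24 of 27, 3 of 5, 33 of 36 and 27 of 27 cells, with means of 7.28 (SD 3.18), 3.03 (SD 3.73), 8.67 (SD 3.28) and 8.95 (SD 2.86). In the second title series its KA mean was 6.69, so that the difference from saline, 1.39 with all cells, turned to -0.59. Cd200, which restrains microglia through its receptor, had means of 2.07 (SD 3.22), 0.45 (SD 0.66), 4.84 (SD 3.83) and 4.95 (SD 3.99), and 3.32 in second-series KA cells, 1.25 above saline. Cd47, the signal against engulfment, had means of 5.59 (SD 3.76), 7.04 (SD 3.02), 6.37 (SD 3.59) and 7.87 (SD 2.66), and 4.09 in second-series KA cells, 1.50 below saline. Tgfb2 had means of 2.68 (SD 3.07), 0.39 (SD 0.88), 3.90 (SD 3.44) and 4.40 (SD 3.20) and Tgfb1 of 1.31 (SD 2.53), 2.60 (SD 2.77), 0.31 (SD 1.30) and 0.21 (SD 0.65), both growth factors of the family that maintains microglia. The Csf1r ligands were low: Csf1 was counted in 7 of 27, 0 of 5, 9 of 36 and 8 of 27 cells and Il34 in 3 of 27, 0 of 5, 1 of 36 and 3 of 27.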

How the data were processed

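Whole-number read counts per gene of single granule cells were deposited by the authors in a quality-controlled table of 95 cells and a table of all 115, along with a table of normalized signal, which is each count times 1 factor per cell. The tools kallisto, featureCounts, STAR and Trimmomatic and the build GRCm38 are named per the submitters' processing notes, while versions and the strand setting are not given in the sources used here. Counts of kept cells summed to 1277978 to 56183007. CPM was each count over the total of its cell (92 spike-in rows left out), and means are of log2(CPM+1), with a pseudocount of 1. Python 3.11.15, pandas 2.3.3, numpy 2.4.6 and SciPy 1.17.1 were used, and the computations were tested on simulated data.

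Groups were taken from the labels. The 4 comparisons between groups had no test, because each group is 1 sample of cells. A gene entered the background when counted in at least 10% of the kept cells (11888 genes, 35 members), and a mean difference of at least 1 on the log2 scale was counted. Members counted in at least 20% of cells (25) are given in full and the others by counts and ranges, the 15 genes most like the members by correlation, and marker lists by counts with at most 3 genes. The members and lists were chosen with earlier results of these data known. Intervals are exact (95%) and cover counting error only. A count of 0 was read as allowing 3. Alternatives covered the pseudocount, pooled counts, the 33 members without Ctsd, Ctsz and Lgmn, the quality labels, the authors' normalized signal, title series and single cells.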

Additional observations from a re-analysis of the deposited data

Results flagged for a closer look

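Among the 5 saline EGFP+ cells, 34 values were tested for a single cell that stood apart by Dixon's criterion, and 12 were flagged. Chance flags about 1 in 20. Of these, 11 concern cell M252, the cell in which Cd68 dominated. Its complement and chemokine shares of the 33 genes were 0.11% and 0.15%, the lowest of the 5, and its lysosomal share of 99.6% was the highest. On the log2(CPM+1) scale it was lowest for C1qb (2.21), C1qc (0.79), Fcgr3 (0.79), Ctsz (0), Lgmn (0), Trem2 (0), Fcer1g (0) and Ly86 (0). The remaining value was Itgam in cell M230, at 10.82 the highest of the 5.

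The 20 cells left out of the quality-controlled table enter no comparison. In 11 of them more than 3 counts came from the 36 members. The highest value was 83488 CPM, in saline EGFP- cell M225. Saline EGFP+ cell M221, with 189424 counts in all, held 76384 CPM and 31 of the members.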

How the results depend on the processing

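Among the 83 alternative values, directions held except in 3 cases, each with a cause that was not tested. The EGFP+ minus EGFP- difference after KA was -2.03 within the second title series, against 1.22. The complement share, KA minus saline, was -1.77 percentage points as a median over cells with at least 1000 CPM of members, against 3.30. Without Ctsd, Ctsz and Lgmn, leaving out single cells gave -0.19 to 4.93 points for the lysosomal share, -24.2 to -11.5 for chemokines, 3.45 to 14.1 for complement and -4.14 to -1.53 for homeostatic genes. KA minus saline in EGFP+ cells was -6.99 in the second title series, against -3.99. Members lower in KA EGFP- cells numbered 15 with a pseudocount of 10 and 13 in the second title series, against 23. Members higher in KA EGFP+ cells numbered 6 with a pseudocount of 10, against 21. Without the filter on low counts, the shares of genes in these 2 comparisons were 5.65% and 8.76%. Leaving out each saline EGFP+ cell gave 4.39 to 5.40 against saline EGFP- and -4.59 to -3.58 for KA against saline EGFP+ cells. The other 74 alternative values, of 83, moved by less than the spread over cells or within 1.5 times the count. No paired analysis was possible because the replicate numbers only name cells and the result comes from no test. A first-series fit of KA against saline was not run, as no saline cell has such a title.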
